A study of Mus musculus with 48 samples.

Results

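The genes described here are 9 tissue kallikreins of the epidermis (Klk5, Klk6, Klk7, Klk8, Klk9, Klk10, Klk11, Klk13 and Klk14) and Spink5, which encodes LEKTI, an inhibitor of some of these proteases. They were taken by gene symbol from the array annotation, without use of their values, and make up 10 of 19147 named genes and 11 of 38385 probesets, since Spink5 has 2 probesets. Skin RNA was measured on custom Affymetrix arrays, 1 array per mouse, in 48 male C57BL/6 mice with diet-induced obesity, whose age is given as 8 weeks and which were treated for 14 days with inhibitors of DGAT1, the enzyme of the last step of triglyceride synthesis. Study 1 had groups of 8 mice on Cpd2, Cpd1 or vehicle. Study 2 had groups of 4 mice on Cpd2, Cpd6 or vehicle, and Study 4 had groups of 4 mice on Cpd6, Cpd18 or vehicle. Cpd2 and Cpd6 are the compounds classed as skin-positive from histology, meaning that sebaceous glands atrophied, and Cpd1 and Cpd18 are the skin-negative compounds. All groups, vehicle included, were obese mice of the same strain on high-fat diet, so that no lean animal entered any comparison. The dose of Cpd1 given to the mice on these arrays is not clear from the sources used here, and Cpd2 was therefore not compared with Cpd1.

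Kallikreins are serine proteases that are made as inactive precursors in the upper living layers of the epidermis and secreted in lamellar granules. In the cornified layer they cut the proteins of corneodesmosomes, the junctions that hold dead keratinocytes together, so that the outermost cells are shed. From human skin it is known that KLK5 can activate itself and the precursors of KLK7 and KLK14, that LEKTI holds these proteases in check, and that loss of LEKTI causes Netherton syndrome with premature shedding.

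The 9 kallikrein genes lie side by side on mouse chromosome 7, in the order Klk14, Klk13, Klk12, Klk11, Klk10, Klk9, Klk8, Klk7, Klk6 and Klk5, followed by Klk4, and Spink5 lies on another chromosome. Klk12 was not named on the array. The 80 bases before the annotated start are given for the kallikreins that were called in any comparison with vehicle, from RefSeq promoter windows of GRCm38.p6, all on the plus strand and written 5′ to 3′. Capitals mark the GC box GGGCGG, searched on both strands, which therefore appears as its complement in Klk7. For Klk6 and Klk11, which have 2 annotated starts each, the start at the lower coordinate is shown.
Klk5, chr7:43842189-43842268: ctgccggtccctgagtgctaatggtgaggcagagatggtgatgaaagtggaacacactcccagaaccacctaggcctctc
Klk6, chr7:43824464-43824543: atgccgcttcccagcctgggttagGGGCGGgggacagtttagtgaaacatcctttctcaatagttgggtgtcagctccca
Klk7, chr7:43811214-43811293: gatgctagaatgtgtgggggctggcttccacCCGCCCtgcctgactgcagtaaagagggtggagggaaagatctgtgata
Klk8, chr7:43797497-43797576: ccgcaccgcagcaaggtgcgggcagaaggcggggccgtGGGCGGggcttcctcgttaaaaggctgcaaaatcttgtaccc
Klk9, chr7:43791811-43791890: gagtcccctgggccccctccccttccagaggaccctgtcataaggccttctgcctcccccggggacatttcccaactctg
Klk10, chr7:43780974-43781053: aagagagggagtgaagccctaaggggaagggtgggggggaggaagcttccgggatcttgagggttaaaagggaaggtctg
Klk11, chr7:43774537-43774616: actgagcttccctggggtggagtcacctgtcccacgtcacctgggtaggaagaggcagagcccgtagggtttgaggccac
Over the 250 bases before each start, GGGCGG was found in 4 of 11 kallikrein windows, those of Klk6, Klk7 and Klk8, against 32.7% of all 32851 windows. The TATA box TATAAA was found in 0 of 11 windows, against 12.4% of all windows, and the AP-1 motif TGANTCA in 0 of 11, against 6.75%. These are matches of letters and say nothing about the binding of a factor.

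Several markers of keratinocytes gave a high signal in these samples. Mean log2 intensities over the 48 arrays were 12.70 for Krt10, 11.97 for Krt1, 12.63 for Lor and 10.11 for Ivl, markers of differentiated keratinocytes, and 12.70 for the basal keratin Krt15. Other differentiated keratinocyte markers were lower, at 5.18 for Krt2, 6.17 for Tgm3 and 6.66 for Sprr1b. Some markers of skeletal muscle and fat were as high, at 13.14 for Tnnc2 and 12.39 for Fabp4. Correlations between arrays ran from 0.946 to 0.996. Skeletal muscle markers stood apart in 4 Cpd2 mice of Study 1, with mean log2 values of 5.69 to 8.30 against at least 10.17 in the vehicle mice of that study. Markers of the growing hair follicle varied widely, with group means from 4.73 to 8.40. Sebaceous gland markers were lower under Cpd2 and Cpd6, with 6 of 11 called lower under Cpd2 in Study 1, 3 under Cpd2 and 4 under Cpd6 in Study 2, and 6 under Cpd6 in Study 4. In the same order, 1728, 25, 83 and 1776 of 28789 probesets tested were called lower. Scd3, Apof and Aox4 were among the markers called each time. The paper chose these genes because they changed in Studies 1 and 2, so their calls there are not independent of that choice.

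The kallikreins covered a wide range of signal in this skin. Over the 48 arrays, Klk5, a trypsin-like protease, averaged 11.77 on the log2 intensity scale and Klk7, a chymotrypsin-like protease, 11.66, both above the 99th percentile of the array at 99.3 and 99.2. Klk10 averaged 10.09, Klk8 10.05, Klk6 9.91 and Klk11 8.71, while Spink5 averaged 9.47 on its brighter probeset and 8.26 on the other. Klk13 at 5.68 and Klk9 at 5.52 were near the middle of the array, and Klk14 at 3.68 was at percentile 36.6. Probesets differ in how well they hybridise, so these are signal levels and not an order of RNA amounts. The neighbours Klk5 and Klk7, Klk10 and Klk8, and Klk13 and Klk9 were each closer to one another than their spread between mice.

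The members also differed in how much mice of the same group varied. The pooled within-group SD was 0.15 for Klk7 and 0.17 for Klk5 on the log2 scale, and between 0.23 and 0.36 for Klk11, Klk8, Klk9, Klk14 and Spink5. It was 0.48 for Klk6, 0.49 for Klk10 and 0.78 for Klk13. A log2 difference that stands clear of the spread for Klk5 or Klk7 is thus inside it for Klk13.

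**Figure D1:**
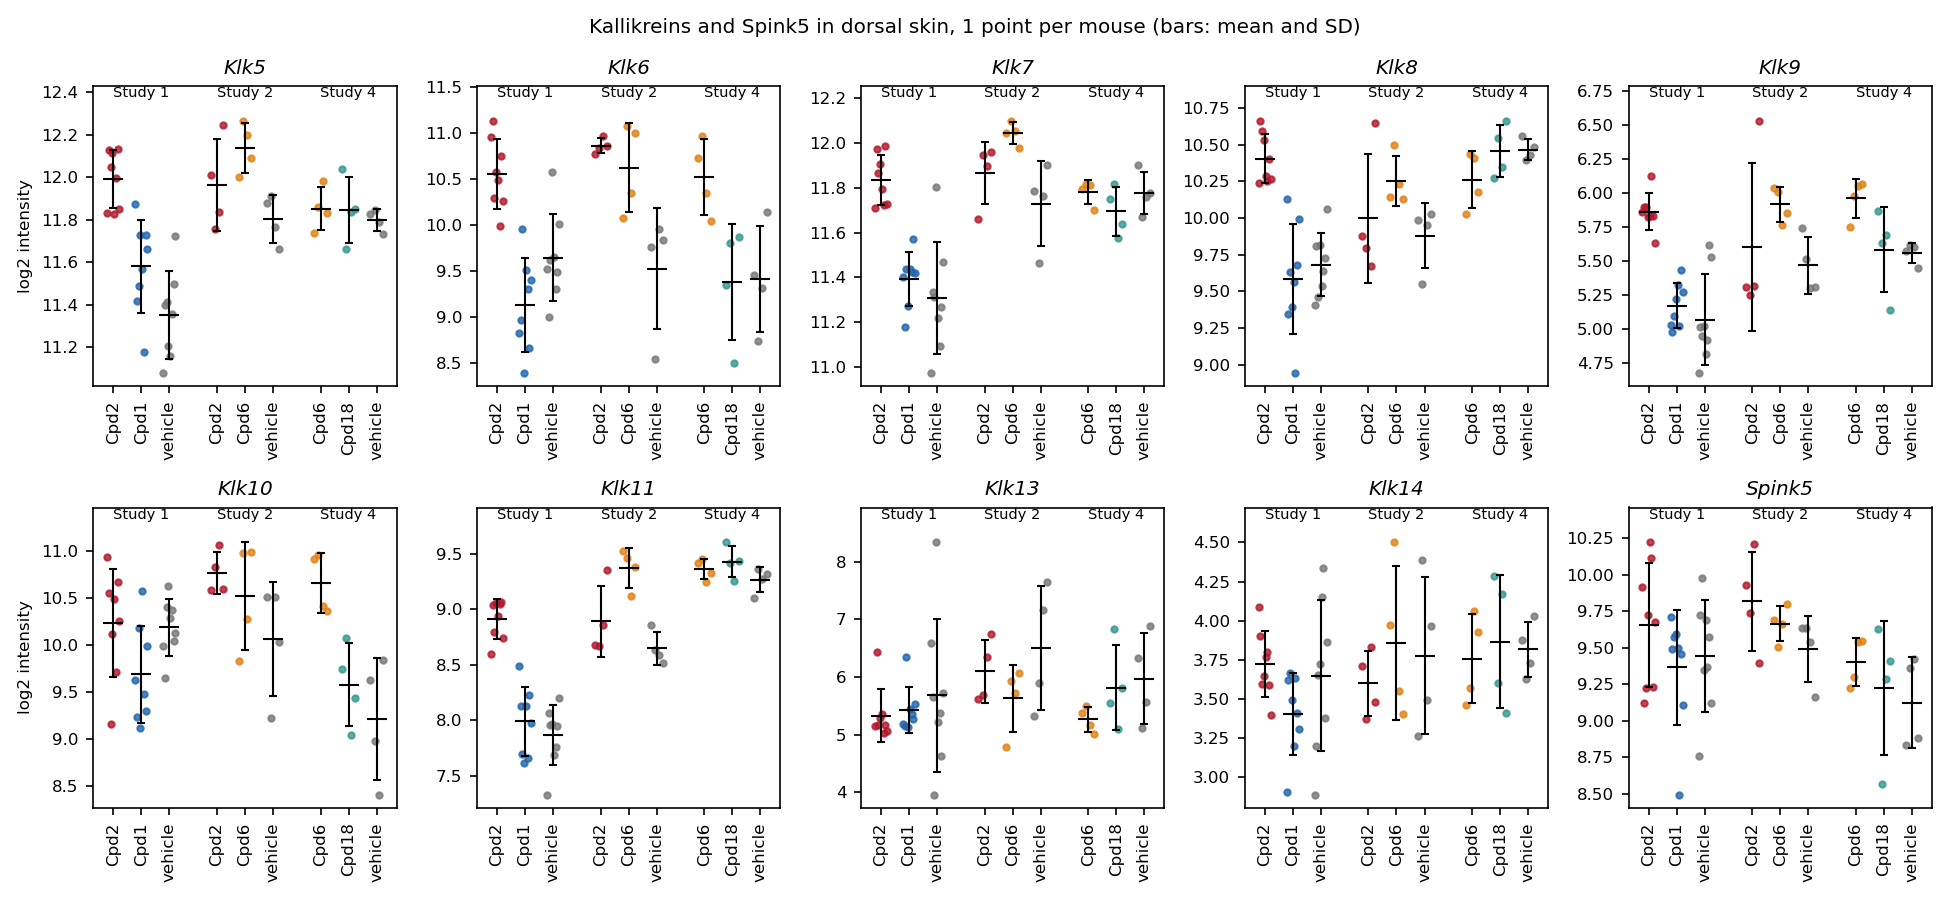
Log2 intensity of each member (y axis) in each mouse, by study and treatment (x axis), where a point is a mouse and the bars give mean and SD of 8 mice per group in Study 1 and 4 per group in Studies 2 and 4. In Study 1 the Cpd2 mice lie above all vehicle mice for Klk5, Klk8, Klk9 and Klk11, and in Study 4 the Cpd6 mice lie above all vehicle mice for Klk9 and Klk10.

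Cpd2 against vehicle in Study 1 gave the most calls among the members. Of the 10 members, 6 were higher under Cpd2 and 0 were lower, at an adjusted p under 0.05 in limma over all 28789 probesets tested. Across all probesets tested, 7.09% were called higher and 13.1% were called in either direction. The median log2 fold change of the members was 0.58, against 0.04 over all probesets.

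Klk5, which starts the protease cascade in human skin, had log2 values from 11.83 to 12.13 with a median of 12.02 in Cpd2 mice, and from 11.07 to 11.72 with a median of 11.38 in vehicle mice. The groups did not overlap, and the log2 fold change was 0.64 ± 0.09 (SE), or 1.56-fold, with a limma adjusted p of 3.44e-05. Klk7, which cuts corneodesmosin in the cornified layer, lay between 11.71 and 11.98 with a median of 11.83 in Cpd2 mice and between 10.97 and 11.80 with a median of 11.29 in vehicle mice. The ranges overlapped only through 1 vehicle mouse, replicate 4, at 11.80, and the log2 fold change was 0.52 ± 0.08 (limma adjusted p = 0.000113). Klk8, a trypsin-like protease also known as neuropsin, lay between 10.24 and 10.66 with a median of 10.35 in Cpd2 mice, against 9.41 to 10.06 with a median of 9.68 in vehicle mice. There was no overlap, and the log2 fold change was 0.72 ± 0.13 (limma adjusted p = 0.000324).

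Klk11, a trypsin-like kallikrein, changed more than any other member in this comparison. Its log2 values were 8.60 to 9.07 with a median of 8.99 in Cpd2 mice and 7.33 to 8.20 with a median of 7.95 in vehicle mice. The lowest Cpd2 mouse was above the highest vehicle mouse, and the log2 fold change of 1.05 ± 0.13 was a 2.07-fold rise (limma adjusted p = 4.17e-06). Klk9, known as a chymotrypsin-like enzyme from the human protein, lay between 5.63 and 6.12 with a median of 5.85 in Cpd2 mice and between 4.67 and 5.62 with a median of 4.98 in vehicle mice. The groups were separated by a narrow gap, and the log2 fold change was 0.80 ± 0.12 (limma adjusted p = 8.04e-05).

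Klk6, a trypsin-like protease, had log2 values of 9.99 to 11.13 with a median of 10.53 in Cpd2 mice and of 9.0 to 10.57 with a median of 9.57 in vehicle mice. The ranges overlapped, and the log2 fold change was 0.91 ± 0.21 (limma adjusted p = 0.00425). Of the 10 members, 4 did not overlap between the groups and were higher under Cpd2 (Klk5, Klk8, Klk9 and Klk11), against 1.49% of all probesets tested.

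The other members were not called in this comparison. Klk10, a kallikrein whose protease activity is poorly defined, lay between 9.15 and 10.94 in Cpd2 mice and between 9.65 and 10.63 in vehicle mice, with a log2 fold change of 0.05 (95% confidence interval -0.40 to 0.50). Klk13, a trypsin-like kallikrein, lay between 5.03 and 6.44 in Cpd2 mice and between 3.96 and 8.33 in vehicle mice, the widest range of any member, and Klk14, another trypsin-like kallikrein, had a log2 fold change of 0.08 (interval -0.27 to 0.42). Spink5 had log2 values from 9.12 to 10.22 with a median of 9.70 in Cpd2 mice and from 8.76 to 9.98 with a median of 9.47 in vehicle mice, which overlapped almost fully. Its log2 fold change was 0.21 with an interval of -0.17 to 0.59 on the brighter probeset, and 0.35 with an interval of 0.10 to 0.60 on the other (limma adjusted p = 0.0621).

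Other epidermal genes moved beside the kallikreins in this comparison. Of 9 tested genes of desmosomes and corneodesmosomes, 7 were higher under Cpd2 and 0 were lower, with a median log2 fold change of 0.35. They included Evpl (0.64), which encodes the plaque protein envoplakin, and the desmosomal cadherins Dsg3 (0.62) and Dsc1 (0.57). Of 20 tested genes for activators, inhibitors and other proteases of the cornified layer, 9 were higher and 1 was lower. The serpin Serpina12 rose by 1.17 on the log2 scale, the whey acidic protein family inhibitor Wfdc5 by 1.15, Serpinb8 by 0.72, and Tmprss13, a membrane-bound serine protease, by 0.64. Of 6 tested genes of signalling proteins linked to these proteases, Il1a rose by 0.99, Il18 by 0.76 and F2r, a protease-activated receptor, by 0.32, while the sphingomyelinase gene Smpd1 fell by 0.33. Of the other members of the kallikrein family, Klk1, Klk15 and Klk1b27 were tested and 0 of 3 were called.

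Markers of cell types differed between the same mice. The score of differentiated keratinocyte markers, the mean of their log2 values, was 10.28 ± 0.12 in Cpd2 mice and 9.90 ± 0.33 in vehicle mice (SD, n = 8 each), and 9 of 15 tested markers were higher. The basal keratinocyte score was 10.72 ± 0.08 in Cpd2 mice and 10.40 ± 0.17 in vehicle mice, with 4 of 7 markers higher. All 20 tested skeletal muscle markers were lower under Cpd2, with a median log2 fold change of -2.53. Of 7 tested leukocyte markers, 4 were higher under Cpd2, the T cell genes Cd4 (0.70), Cd3g (0.65) and Cd3e (0.44) and the Langerhans cell gene Cd207 (0.53), and the leukocyte score was 8.98 ± 0.21 in Cpd2 mice and 8.51 ± 0.29 in vehicle mice. The part of the leukocyte markers in the kallikrein differences was not tested. In bulk skin, more cells of a type and more RNA per cell cannot be told apart. With the differentiated keratinocyte score or the skeletal muscle score as a covariate, and equally when the 4 Cpd2 mice with low muscle markers were left out, 5 of 10 members were called higher in each case (Klk5, Klk7, Klk8, Klk9 and Klk11). The share of all probesets called in these fits is not given here. The log2 fold change of Klk7 was 0.29 with the keratinocyte score (limma adjusted p = 0.0119), against 0.52 without it. Klk6 was lost in each of these fits, with log2 fold changes of 0.43 (limma adjusted p = 0.254), 0.74 (adjusted p = 0.129) and 0.78 (adjusted p = 0.115).

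**Figure D2:**
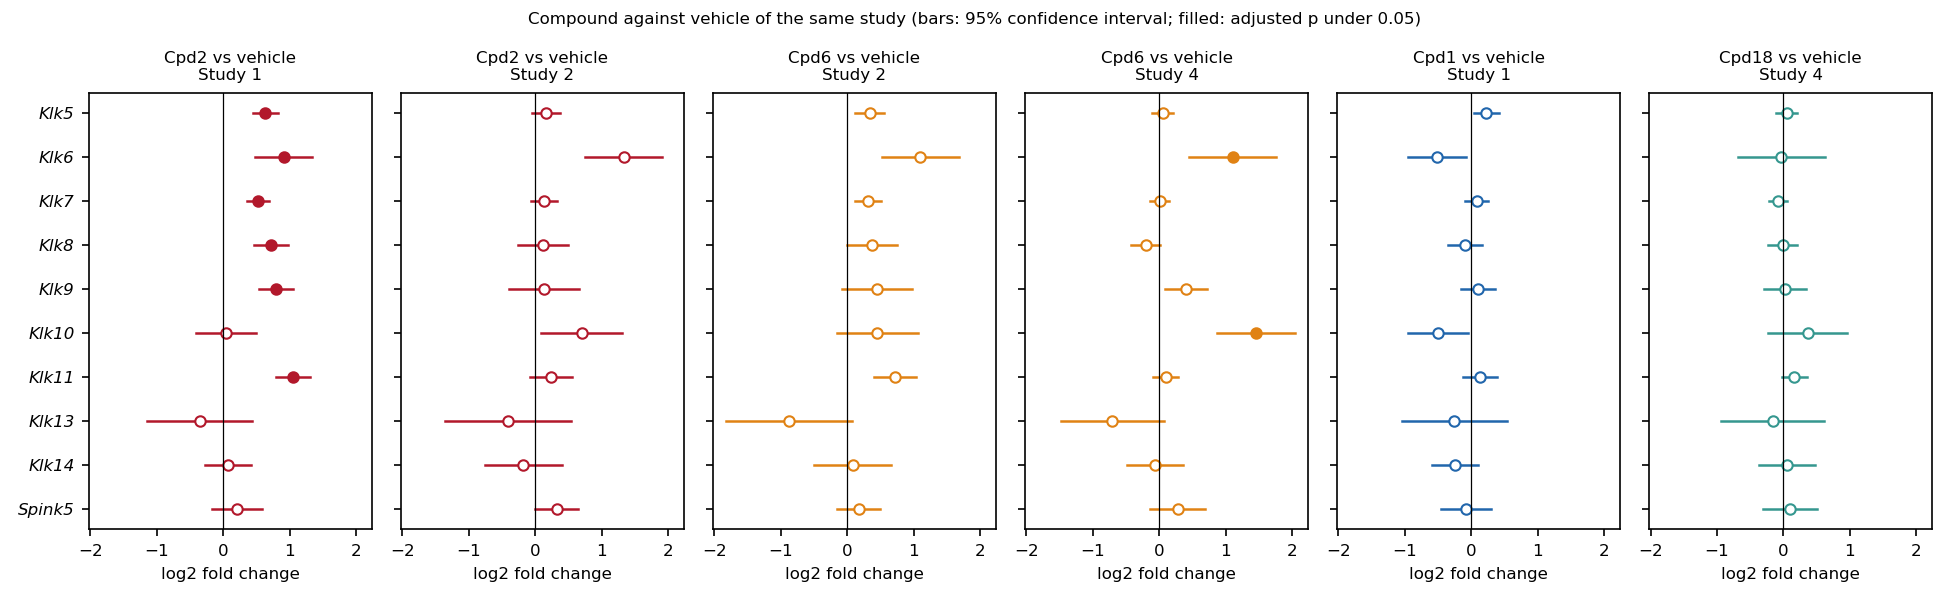
Log2 fold change of each member (x axis) against the vehicle group of the same study, 1 panel per comparison and 1 line per gene, with 95% confidence intervals; filled points have a limma adjusted p under 0.05. Klk5, Klk6, Klk7, Klk8, Klk9 and Klk11 are filled for Cpd2 in Study 1 and Klk6 and Klk10 for Cpd6 in Study 4, and the interval of Klk13 includes 0 in all 6 panels.

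Study 2 tested Cpd2 again, with 4 mice per group, and added Cpd6. For Cpd2, limma called 0 of 10 members and 0.129% of all probesets, and the methods' t-test with adjustment called 0 members. An unadjusted p under 0.05 was found for 2 members and for 7.38% of all probesets. The members with the largest differences were Klk6 and Klk10. Klk6 had log2 values of 10.77, 10.83, 10.97 and 10.86 in Cpd2 mice and of 9.76, 8.55, 9.96 and 9.83 in vehicle mice. Every Cpd2 mouse was above every vehicle mouse, and the log2 fold change was 1.33 ± 0.27 (SE) with a limma adjusted p of 0.0975. Over the 8 fits that each left out 1 mouse, the log2 fold change was 1.01 to 1.48 and the limma adjusted p 0.0360 to 0.345. It was under 0.05 only without vehicle replicate 1.

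Klk10 had log2 values of 10.58, 10.83, 11.06 and 10.59 in Cpd2 mice and of 10.51, 9.22, 10.51 and 10.03 in vehicle mice. These groups did not overlap either, by a small margin, and the log2 fold change was 0.70 ± 0.28 (limma adjusted p = 0.580). Groups without overlap, higher under Cpd2, made up 2 of 10 members against 1.89% of all probesets. Klk11, the member with the largest change under Cpd2 in Study 1, had 8.67, 8.67, 8.86 and 9.36 in Cpd2 mice and 8.86, 8.63, 8.59 and 8.52 in vehicle mice. Only replicate 4 stood clear of the vehicle range, and the log2 fold change was 0.24 (95% confidence interval -0.08 to 0.56).

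For Cpd6 in Study 2, limma called 0 of 10 members and 0.379% of all probesets, and the methods' t-test with adjustment called 0 members. The unadjusted p was under 0.05 for 4 members and 11.8% of all probesets. With array weights limma called 4 members, Klk5, Klk6, Klk7 and Klk11, but the share of all probesets called in that fit is not given here. Klk11 came closest, with log2 values of 9.52, 9.47, 9.12 and 9.38 in Cpd6 mice and of 8.86, 8.63, 8.59 and 8.52 in vehicle mice. The Cpd6 mice were all above the vehicle mice, with a log2 fold change of 0.72 ± 0.15 (SE), or 1.65-fold, and a limma adjusted p of 0.0541. Over the 8 fits that each left out 1 mouse, the log2 fold change was 0.67 to 0.81 and the limma adjusted p 0.0171 to 0.192. It was under 0.05 only without vehicle replicate 1. Klk6 had 10.08, 11.07, 10.35 and 11.00 in Cpd6 mice against 9.76, 8.55, 9.96 and 9.83 in vehicle mice, a log2 fold change of 1.10 ± 0.27 (adjusted p = 0.0983).

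In the same comparison, 6 of 10 members did not overlap between the groups, all higher under Cpd6 (Klk5, Klk6, Klk7, Klk8, Klk9 and Klk11), against 4.31% of all probesets. Klk5 had log2 values of 12.00, 12.27, 12.20 and 12.09 in Cpd6 mice and of 11.88, 11.91, 11.76 and 11.66 in vehicle mice, a difference of 0.34 ± 0.10. Klk7 had 12.04, 12.10, 12.05 and 11.98 in Cpd6 mice and 11.79, 11.46, 11.76 and 11.90 in vehicle mice, a difference of 0.31 ± 0.09. Neither passed the adjustment, at limma adjusted p of 0.170 for Klk5 and 0.159 for Klk7. Each of the 6 was also called under Cpd2 in Study 1, and the Cpd2 and Cpd6 comparisons of Study 2 share their 4 vehicle mice. Cell type scores also differed in Study 2. The hair follicle score was 4.73 ± 0.83 in Cpd6 mice, 5.42 ± 1.39 in Cpd2 mice and 8.31 ± 2.66 in vehicle mice (SD, n = 4 each). The basal keratinocyte score was 10.82 ± 0.10, 10.64 ± 0.14 and 10.49 ± 0.20 in the same order. Under either compound 0 of 15 hair follicle and 0 of 7 basal markers were called. The part of the basal markers in the member differences was not tested. Spink5 showed 9.69, 9.51, 9.66 and 9.80 in Cpd6 mice and 9.63, 9.64, 9.54 and 9.16 in vehicle mice, with a log2 fold change of 0.17 (95% confidence interval -0.16 to 0.50).

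Cpd2 and Cpd6 were set against each other within Study 2. Limma called 0 of 10 members and 0% of all probesets, and the methods' t-test with adjustment called 0 members. An unadjusted p under 0.05 was found for 1 member and 8.23% of all probesets. That member was Klk11, at 8.67, 8.67, 8.86 and 9.36 under Cpd2 and 9.52, 9.47, 9.12 and 9.38 under Cpd6, with a log2 fold change of -0.48 (95% confidence interval -0.80 to -0.16; adjusted p = 0.382). Klk7 was the 1 member whose groups did not overlap, lower under Cpd2, against 2.79% of all probesets, with a log2 fold change of -0.18 (interval -0.37 to 0.02). For Klk6 the difference was 0.24 (interval -0.34 to 0.81).

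In Study 4, Cpd6 was given beside Cpd18. Under Cpd6, 2 of 10 members were called higher, Klk6 and Klk10, and 0 lower, while 4.56% of all probesets were called higher and 10.7% in either direction. Klk10 had log2 values of 10.92, 10.96, 10.41 and 10.36 in Cpd6 mice and of 9.63, 8.98, 8.40 and 9.84 in vehicle mice. The groups were apart, with a log2 fold change of 1.45 ± 0.28 (SE), or 2.74-fold, and a limma adjusted p of 0.00683. Klk6 had 10.72, 10.97, 10.35 and 10.04 in Cpd6 mice and 9.45, 8.74, 9.32 and 10.14 in vehicle mice. Vehicle replicate 4 was above the lowest Cpd6 mouse, and the log2 fold change was 1.11 ± 0.31 (limma adjusted p = 0.0344). The Klk6 call was lost when any of Cpd6 replicates 1, 2 and 3 or vehicle replicates 1, 2 and 3 was left out, with log2 fold changes of 0.88 to 1.35 and adjusted p of 0.0227 to 0.0864 over the 8 fits that each left out 1 mouse. By the methods' t-test with adjustment neither Klk6 nor Klk10 was called (adjusted p = 0.121 and 0.0752), and Klk9 was (0.0487).

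Of the other members called under Cpd2 in Study 1, Klk5, Klk7, Klk8 and Klk11 showed small differences under Cpd6 in Study 4, and Klk9 a larger one. Klk5 had log2 values of 11.74, 11.86, 11.98 and 11.83 in Cpd6 mice and of 11.83, 11.85, 11.79 and 11.73 in vehicle mice, and Klk11 had 9.42, 9.45, 9.25 and 9.33 in Cpd6 mice and 9.10, 9.37, 9.28 and 9.32 in vehicle mice. Both overlapped, with log2 fold changes of 0.05 (95% confidence interval -0.10 to 0.21) and 0.10 (interval -0.09 to 0.28). Klk7 differed by 0.00 (interval -0.13 to 0.14) and Klk8 by -0.20 (interval -0.42 to 0.01). Klk9, with 5.75, 5.98, 6.05 and 6.07 in Cpd6 mice against 5.57, 5.61, 5.60 and 5.45 in vehicle mice, did not overlap but was not called (log2 fold change 0.40, limma adjusted p = 0.0929). Groups without overlap, higher under Cpd6, were found for 2 of 10 members, Klk9 and Klk10, a share to be read against 8.82% of all probesets.

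Spink5 again overlapped in Study 4, at 9.22, 9.30, 9.54 and 9.55 in Cpd6 mice and 8.83, 9.36, 9.42 and 8.88 in vehicle mice, and its probesets gave log2 fold changes of 0.28 and -0.09, opposite in sign and neither called. Klk13 was at 5.37, 5.51, 5.18 and 5.01 in Cpd6 mice and 6.34, 5.11, 5.56 and 6.89 in vehicle mice, a log2 fold change of -0.71 (95% confidence interval -1.48 to 0.07). Of the genes around the kallikreins, 0 of 20 for activators, inhibitors and other proteases were higher and 5 were lower, among them the inhibitor gene Spink12 (-2.38) and the cysteine protease genes Ctsc (-0.85), Ctsl (-0.41) and Lgmn (-0.37). Cdsn, which encodes corneodesmosin, was the 1 of 9 desmosome and corneodesmosome genes called, higher by 0.33, and Tslp, an epithelial cytokine gene, fell by 0.78. The hair follicle score was 4.81 ± 0.84 in Cpd6 mice and 8.40 ± 2.75 in vehicle mice (SD, n = 4 each), with 4 of 15 markers called lower. With that score as a covariate 1 of 10 members was called, Klk10, and Klk6 had a log2 fold change of 1.47 with a limma adjusted p of 0.0536. The share of all probesets called in that fit is not given here.

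Other cell type markers also differed between the Cpd6 and vehicle mice of Study 4. Of the basal keratinocyte markers 3 of 7 were higher, with a score of 11.07 ± 0.02 in Cpd6 mice and 10.83 ± 0.07 in vehicle mice (SD, n = 4 each). Of the differentiated keratinocyte markers 2 of 15 were higher, Krt1 (0.19) and Lor (0.19), while their score was 10.37 ± 0.06 in Cpd6 mice and 10.62 ± 0.35 in vehicle mice. Of the skeletal muscle markers 4 of 20 were higher, with a score of 12.09 ± 0.18 in Cpd6 mice and 11.87 ± 0.23 in vehicle mice, and with that score as a covariate Klk10 was called and Klk6 was not (limma adjusted p = 0.0674). The leukocyte markers were split, with Cd3e higher (0.43) and Csf1r (-0.49), Ptprc (-0.48) and Cd3g (-0.43) lower among 7 tested. The part of the basal keratinocyte and leukocyte markers in the Klk6 and Klk10 differences was not tested.

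The skin-negative compounds gave no call among the members. For Cpd1 in Study 1, limma called 0 of 10 members and 0.327% of all probesets, and the methods' t-test with adjustment called 0 members. The unadjusted p was under 0.05 for 3 members and 13.2% of all probesets. Klk5 lay between 11.17 and 11.88 with a median of 11.62 in Cpd1 mice, against 11.07 to 11.72 with a median of 11.38 in vehicle mice, a log2 fold change of 0.23 (95% confidence interval 0.04 to 0.41). Klk6 lay between 8.39 and 9.96 with a median of 9.14 in Cpd1 mice, against 9.0 to 10.57 with a median of 9.57 in vehicle mice, a log2 fold change of -0.52 (interval -0.95 to -0.08). Klk10 had a log2 fold change of -0.50 (interval -0.95 to -0.05), so both differences were negative, and neither was called. The calls of Klk6 under Cpd2 in Study 1 and Cpd6 in Study 4, and of Klk10 under Cpd6 in Study 4 only, were positive. Under Cpd2 in Study 1 the log2 fold change of Klk10 was 0.05. With the hair follicle score as a covariate, Klk6 was called lower under Cpd1, at -0.68 (limma adjusted p = 0.0411). The hair follicle score itself was 7.29 ± 2.15 in Cpd1 mice and 5.95 ± 2.50 in vehicle mice (SD, n = 8 each). Among the genes around the kallikreins, Serpina12 alone was called, higher by 0.76 (adjusted p = 0.0361).

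For Cpd18 in Study 4, limma called 0 of 10 members and 0.00347% of all probesets, and the methods' t-test with adjustment called 0 members. The unadjusted p was under 0.05 for 0 members and 7.96% of all probesets. Klk10 differed most, at 9.74, 10.08, 9.04 and 9.44 in Cpd18 mice and 9.63, 8.98, 8.40 and 9.84 in vehicle mice, with a log2 fold change of 0.36 (95% confidence interval -0.23 to 0.95). The interval for Klk5 was -0.11 to 0.20 and that for Klk6 was -0.69 to 0.62, so that a change of Klk6 of the size seen under Cpd6 against vehicle lay outside it. A p that misses the threshold does not show that Cpd18 left these genes as they were.

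Cpd6 was also compared with Cpd18 within Study 4. Limma called 0 of 10 members and 0.49% of all probesets, and the methods' t-test with adjustment called 0 members. The unadjusted p was under 0.05 for 3 members and 12.5% of all probesets. Klk6 had log2 values of 10.72, 10.97, 10.35 and 10.04 under Cpd6 and of 9.35, 9.80, 8.50 and 9.87 under Cpd18, and Klk10 had 10.92, 10.96, 10.41 and 10.36 under Cpd6 and 9.74, 10.08, 9.04 and 9.44 under Cpd18. Neither gene overlapped between the compounds, which held for 2 of 10 members against 2.72% of all probesets in this direction. The log2 fold changes were 1.14 ± 0.31 (SE) for Klk6 and 1.09 ± 0.28 for Klk10, with limma adjusted p of 0.149 and 0.131. For Klk5 the difference was 0.01 (95% confidence interval -0.15 to 0.16).

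Each skin-positive compound was given in 2 studies, and the difference between its effects was tested in 1 fit over the 48 arrays. For Cpd2, Study 1 minus Study 2, 1 of 10 members was called higher, against 0.313% of all probesets called higher and 0.726% in either direction. Klk11 had a log2 fold change of 1.05 in Study 1 and 0.24 in Study 2, and the difference was 0.81 ± 0.19 (SE), with a limma adjusted p of 0.0396. The call was lost in 12 of 24 fits that left out 1 mouse, where the difference was 0.73 to 0.83, and when the 4 Cpd2 mice with low muscle markers were left out (0.73, adjusted p = 0.154). Klk5 differed by 0.48 (adjusted p = 0.0776), Klk7 by 0.39, Klk8 by 0.60 and Klk9 by 0.66, and Klk6 and Klk10 by -0.42 and -0.65, with none of these called. The vehicle mice of the studies differed in level, and Klk11 averaged 7.86 ± 0.27 in Study 1, 8.65 ± 0.15 in Study 2 and 9.27 ± 0.11 in Study 4 (SD, n = 8, 4 and 4). Study and array batch cannot be told apart in these levels.

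For Cpd6, Study 2 minus Study 4, limma called 0 of 10 members and 0% of all probesets, while 4 members and 7.72% of all probesets had an unadjusted p under 0.05. The methods' t-test has no form for this difference. Klk6 had nearly the same log2 fold change in both studies, 1.10 in Study 2 and 1.11 in Study 4, a difference of -0.01 (95% confidence interval -0.93 to 0.91). For Klk11 the fold changes were 0.72 in Study 2 and 0.10 in Study 4, a difference of 0.63 (interval 0.18 to 1.07; adjusted p = 0.362), and for Klk10 they were 0.46 and 1.45, a difference of -0.999 (interval -1.93 to -0.07).

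Variation between mice of the same group showed which members went up and down together. For 45 pairs of members, deviations from the group means were correlated over the 48 mice, with permutation within groups (100000 permutations, two-sided) and adjustment over 75 relations. A relation is said to pass where the adjusted permutation p of its Pearson r was under 0.05, and 11 pairs passed. Klk7 with Klk10 and Klk7 with Klk13 just missed, at adjusted permutation p of 0.0502 and 0.0515. By rho both were under 0.05, at adjusted permutation p of 0.0386 and 0.00804. The same held by rho for Klk7 with Klk11 (0.0394) and Klk8 with Klk13 (0.0221), which did not pass by r. Klk6 and Klk10 had a Pearson r of 0.76 and a Spearman rho of 0.82 (both permutation p = 1e-05, the smallest the permutations can give), with r of 0.72 in Study 1, 0.93 in Study 2 and 0.70 in Study 4. Without the 2 mice farthest out in Klk10 it was 0.79. Klk6 also went with Klk13 (r = 0.62, rho = 0.67) and Klk7 (r = 0.53, rho = 0.52). Klk10 went with Klk13 at r = 0.37 (rho = 0.50), though r was 0.24 in Study 1, 0.34 in Study 2 and 0.82 in Study 4.

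Among Klk5, Klk8, Klk9 and Klk11, 5 of 6 pairs passed, all with positive r. The r was 0.65 for Klk5 with Klk8, 0.60 for Klk5 with Klk11, 0.59 for Klk5 with Klk9, 0.57 for Klk8 with Klk11 and 0.54 for Klk9 with Klk11, with rho of 0.49, 0.49, 0.55, 0.40 and 0.49. Klk8 with Klk9 did not pass, at r = 0.44 (adjusted permutation p = 0.0674), and its r was -0.35 in Study 4. Klk8 also passed with Klk7 (r = 0.45, rho = 0.57). In Study 4 these relations did not all hold, with r of -0.01 for Klk5 with Klk8, 0.11 for Klk5 with Klk11, -0.27 for Klk8 with Klk11 and 0.01 for Klk9 with Klk11. Klk5 and Klk6 had an r of -0.18 and were not among the pairs that passed. By r, Spink5 passed with Klk13 only, at r = -0.46 and rho = -0.50 (adjusted permutation p = 0.00971 and 0.00606). By rho, Spink5 with Klk7 was also under 0.05, at rho = -0.41 (adjusted permutation p = 0.0302), while its r was -0.24 (adjusted permutation p = 0.299).

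**Figure D3:**
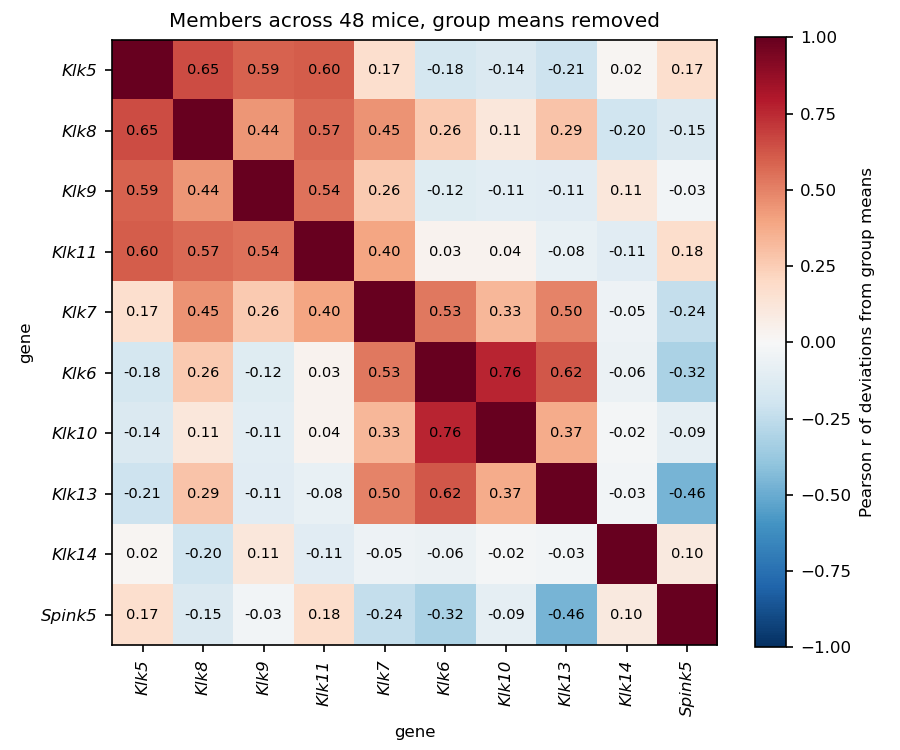
Pearson r between members (both axes) over 48 mice after the mean of each group was subtracted, with the colour scale from -1 to 1. The r among Klk5, Klk8, Klk9 and Klk11 runs from 0.44 to 0.65, with Klk8 and Klk9 at 0.44 as the 1 pair of these that did not pass, and Klk6 has its highest r, 0.76, with Klk10.

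The members also varied with the markers of keratinocytes and hair follicles. Klk7 had an r of 0.70 (rho 0.69) with the differentiated keratinocyte score, Klk6 0.64 (rho 0.63) and Klk13 0.62 (rho 0.60), while Klk5 had an r of 0.63 (rho 0.60) with the basal keratinocyte score and Klk13 an r of -0.59 (rho -0.44). Within Study 4 the r was 0.21 for Klk5 with the basal score and 0.36 for Klk7 with the differentiated score. For Klk13 with the basal score it was -0.75 in Study 1, -0.46 in Study 2 and 0.06 in Study 4. The hair follicle score fell into a lower range of 3.92 to 6.05 in 28 mice and an upper range of 7.16 to 10.79 in 20 mice, and relations with it are given within each, a split chosen after its values were seen. Klk13 lay between 3.96 and 6.35 with a median of 5.31 in mice of the lower range and between 5.09 and 8.33 with a median of 6.12 in mice of the upper range. Its r with the score was 0.20 (rho 0.31) in the lower range and 0.67 (rho 0.62) in the upper range, with permutation p of 0.303 and 0.00146, or 0.606 and 0.00584 after adjustment over 4 relations. In these ranges group means were not subtracted, and mice were permuted across groups and studies. Differences between groups and studies therefore enter these r and p. Without the 2 mice farthest out, the upper r was 0.46. Spink5 had r of 0.08 and -0.16 with the score in these ranges. Over all 48 mice, with group means subtracted, the score passed with Klk13 (r = 0.72, adjusted permutation p = 0.00015) and Spink5 (r = -0.48, adjusted permutation p = 0.00971). It also passed with Klk7 (r = 0.44, adjusted permutation p = 0.0421). In Studies 1, 2 and 4 the r was -0.45, -0.66 and -0.47 for Spink5, and 0.57, 0.25 and 0.16 for Klk7.

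**Figure D4:**
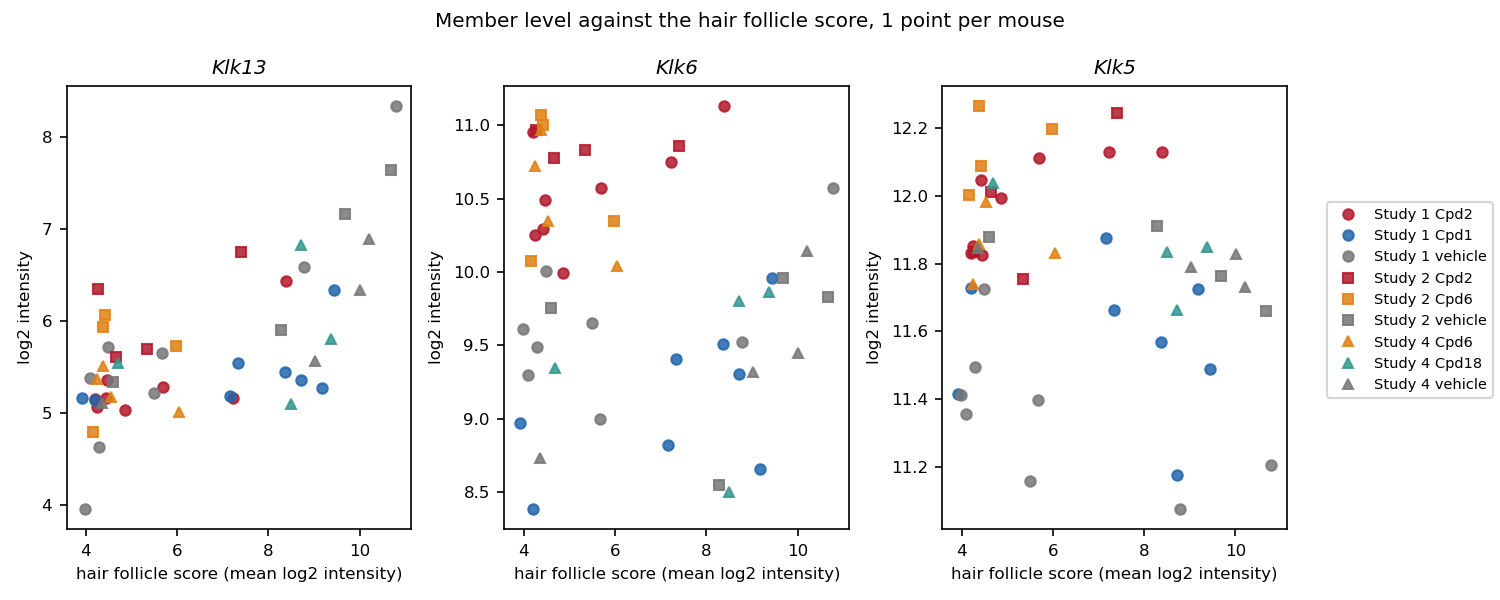
Log2 intensity of Klk13, Klk6 and Klk5 (y axes) against the hair follicle score, the mean log2 intensity of its markers (x axis), with 1 point per mouse, colour for the treatment and shape for the study. The highest Klk13 value, 8.33, belongs to the mouse with the highest score, 10.79, and the Klk6 values of Cpd2 and Cpd6 mice lie at 9.99 or higher at any score.

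The genes most like each member were found from these within-group deviations over the 48 arrays. Klk6 was most like Sprr4 (r = 0.87), a small proline-rich gene, and the cystatin genes Cstb (0.82) and Cst6 (0.81), and Klk10 was most like Rptn (0.87), which encodes repetin of the cornified envelope, Cst6 (0.84) and Sprr4 (0.82). Klk7 was nearest to the serpin gene Serpinb5 (0.80), Klk8 to Tesc (0.82), Klk9 to Rnf225 (0.74) and Klk5 to Fut1 (0.82). Klk11 was nearest to Il1f5 (0.76), which encodes an antagonist of the interleukin-36 receptor. Klk13 was nearest to Mycn (0.87), Kif22 (0.87) and Selenoh (0.86), Spink5 to Cdc42bpa (0.83), and Klk14, the member with the lowest signal, to H1f7 (0.69). These values pick the highest of many correlations and are given as a description.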

How the data were processed

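Total RNA from skin of 48 mice, dorsal per the labels although the methods also allow ventral biopsies, was measured on custom Affymetrix arrays. The authors made the intensity values with RMA, whose version is not given in the sources used here, and the deposited table holds linear intensities from 1.60 to 13570, with array medians from 26.4 to 30.8. No 2 arrays were identical. All values here are log2 of the deposited intensity. The absent call of the methods needs probe-level data, so probesets whose mean log2 value was under 2.93, the 25th percentile, were left out in its place, which left 28789, among them all 11 member probesets. Of 38385 probesets, 24478 name 1 gene, 65 several and 13842 none. A gene was read from its brightest probeset. Probe sequences were not used here, so cross-hybridisation between these related genes was not tested.

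Each study was fitted in limma 3.58.1 (R 4.3.3) with 1 mean per group, empirical Bayes moderation with a trend, and Benjamini-Hochberg adjustment over all probesets tested; differences between studies used 1 fit over 48 arrays. Calls were made where the adjusted p was under 0.05. The methods' t-test stands in for the one-way ANOVA of the methods. Its own threshold is the one given there, p of 0.01 and fold of 1.2. It was also used with Benjamini-Hochberg adjustment at 0.05, which the methods do not describe. Precision is limited by how many arrays there are. Members and lists were chosen with earlier results of these data known. Named genes are the members, up to 4 called genes per list and comparison with the largest change, and the 3 genes most like each member. Klk1, Klk15, Klk1b27 and the skin, muscle and fat markers whose levels are given were named outside this rule. Same-numbered mice did not deviate together (r from -0.44 to 0.38 over 48 pairs, 15 above 0.1), so no pairing was used. Python 3.11.15, numpy 2.4.6, pandas 2.3.3, scipy 1.17.1 and matplotlib 3.10.9 were used for the other steps. Nothing says whether mice shared cages or batches.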

Additional observations from a re-analysis of the deposited data

Results flagged for a closer look

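Of 99 sets of values, each a member probeset in a group, 5 had a mouse far from the others, and chance gives about 1 in 20. In the Study 2 vehicle group, replicate 2 was lowest for Klk6 (8.55, next 9.76) and for Klk8 (9.55, next 9.95). In the Study 2 Cpd2 group, replicate 4 was highest for Klk9 (6.53, next 5.32). Klk13 was highest in replicate 3 of the Study 1 Cpd1 group (6.34, next 5.54) and in replicate 2 of the Study 1 Cpd2 group (6.44, next 5.36). The effect of Cpd2 on Klk11 was larger in Study 1 than in Study 2, by 0.81 on the log2 scale in the test of the difference itself. The causes were not tested.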

How the results depend on the processing

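Alternatives were no filter, a 50th percentile filter, equal array medians, quantile normalization, array weights, 1 fit over 48 arrays, the methods' t-test, every probeset, 3 marker scores as covariates and each mouse left out; leaving out the 4 Cpd2 mice lowest in muscle markers was chosen after seeing the data. No called value changed sign. Under Cpd2 in Study 1, 5 to 6 members were called throughout, 6 in each of 16 fits without 1 mouse, and Klk5, Klk7, Klk8, Klk9 and Klk11 were called in every one. Under Cpd6 in Study 2 the count of 0 became 4 with array weights (Klk5, Klk6, Klk7 and Klk11), 2 with the methods' t-test at its own threshold, and 1, Klk11, with the 50th percentile filter, 1 fit over all arrays or the keratinocyte covariate. Under Cpd2 in Study 2 it became 1 with the methods' t-test at its own threshold, and under Cpd1 1 with the hair follicle covariate. Under Cpd6 in Study 4 the count of 2 became 1 with the methods' t-test after adjustment, where it was Klk9, and 1, Klk10, with the muscle or hair follicle covariate. With the methods' t-test at its own threshold, Klk9 and Klk10 were called there and Klk6 was not. Cpd6 against Cpd18 gave 2 with the keratinocyte covariate and 1 with the methods' t-test at its own threshold. The Cpd2 difference between studies gave 5 with array weights and 0 with the muscle or keratinocyte covariate or without the 4 mice, and the Cpd6 difference gave 1 with array weights. Leaving out 1 mouse gave 0 to 1 for Cpd2 and for Cpd6 in Study 2, 1 to 2 for Cpd6 in Study 4 and 0 to 4 for the Cpd2 difference. It gave 0 to 0 for the others, apart from Cpd2 in Study 1. Over the same fits, all probesets called ranged from 14 to 257 for Cpd2 and 39 to 598 for Cpd6 in Study 2. They ranged from 1305 to 3007 for Cpd6 in Study 4 and from 26 to 1521 for the Cpd2 difference. For the other alternatives the number of all probesets called is not given here. The causes were not tested. With the replicate number as a block, which the labels do not tie to a shared animal or day, the Cpd2 difference between studies gave 0 members (Klk11 adjusted p = 0.0535), and no other count of members changed. Signal limits Klk14, at percentile 36.6 of the array, and 4 mice per group limit Studies 2 and 4.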
